A study of Mus musculus with 6 samples.

Results

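Among the circular RNAs (circRNAs) profiled in the cardiac apex of db/db and C57BL/6 mice, 99 of 14236 circRNA probes were brighter than the array's negative controls and read higher in db/db. They were chosen on the measured values themselves. A probe was eligible when it lay above all 15 probes named as negative controls on each of the 6 arrays and was not among the 100 brightest of C57BL/6, which left 1832 circRNAs. A member then had its lowest db/db array above its highest C57BL/6 array and a mean db/db level at least 0.4 above the mean C57BL/6 level on the log2 scale. The group difference of the members is therefore how they were found and not a finding. Their size of difference, their order among arrays and their dependence on single arrays and scaling are described here. The array files pair the probes with no circRNA name, host gene, genomic position or sequence, so the members carry no gene annotation, and only the 2 of largest difference are given by probe ID.

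The db/db group were mice of that genotype, taken at 21 weeks of age, and the comparison group were C57BL/6 mice of the same age. Each group had 3 animals with 1 array each, and each array's animal was a different donor, per the labels. The labels name no treatment in either group, and no strain background for the db/db mice. The study set this comparison in the context of cardiac fibrosis, by its title.

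A circRNA forms when a downstream splice site of a transcript is joined back to an upstream one, which yields a closed loop without free ends. Such loops resist exonucleases and can last longer in cells than the linear transcript of the same gene. Heart muscle expresses many circRNAs, some of which bind microRNAs or proteins. Mice of the db/db genotype lack a working long form of the leptin receptor, overeat, and develop obesity and diabetes, and their hearts are used as a model of diabetic cardiomyopathy. RNase R, an exonuclease that degrades most linear RNA, was applied before labelling, per the labels' protocols.

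All values are given as a level, which is the log2 processed intensity of a probe minus the 75th percentile of its array. That percentile was 296 to 494 intensity units on the db/db arrays and 399 to 715 on the C57BL/6 arrays, and no spot was saturated. The arrays of C57BL/6 replicates 1 and 2 came from scan 1, while C57BL/6 replicate 3 and the 3 db/db arrays came from scan 2, so group and scan are partly confounded. The arrays are bulk measurements, in which fewer cells of a type and less RNA per cell cannot be told apart. Of 11 cardiomyocyte markers, only Hspb7, a small heat shock protein of heart muscle, had a probe, with a level of 1.78 to 2.13 in C57BL/6 and 1.57 to 1.89 in db/db. None of the 6 fibroblast, 3 endothelial, 3 macrophage, 3 adipocyte or 2 blood markers had one, and neither did Lepr, the gene mutated in db/db mice, or any of 13 genes of circRNA formation and decay. The Hspb7 probe was read after RNase R, so its level need not follow the amount of linear mRNA.

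The members covered a wide range of brightness. Their mean C57BL/6 level ran from 0.49 to 5.42, with a median of 2.02, beside a median of 2.30 for the 1832 eligible circRNAs. On C57BL/6 replicate 3, the median processed intensity of the members was 1679 and the range 569 to 17165. On its lowest array relative to the controls, a member read between 1.001 and 30.6 times the brightest negative control, with a median of 2.58 times. For 64 of the 99 members the signal was at least 2 times that control on every array. The faintest members thus lay at the very edge of the control signal.

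The largest difference belonged to ASCRP4007607. Its C57BL/6 levels were 0.49, 0.37 and 0.92, and its db/db levels 1.49, 3.13 and 2.41, with replicates 1, 2 and 3 in that order here and in what follows. The 3 db/db arrays differed more among themselves than the C57BL/6 arrays, and db/db replicate 1 lay closest to the controls. The mean difference was 1.75 ± 0.50 (SE, n = 3 per group, from the 2 groups' own SDs, as in the values that follow), or 3.36-fold.

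ASCRP4009573 came next, with levels of 2.03, 1.19 and 1.88 in C57BL/6 and 2.30, 4.71 and 3.30 in db/db. Here db/db replicate 1 was only 0.27 above C57BL/6 replicate 1, while db/db replicate 2 was far above all other arrays. The mean difference was 1.74 ± 0.74 (SE, n = 3 per group), or 3.34-fold.

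The third member read 1.09, 0.97 and 1.57 in C57BL/6 and 2.17, 3.64 and 2.84 in db/db, a difference of 1.68 ± 0.46 (SE, n = 3 per group). Its arrays had the same order as those of ASCRP4007607. The fourth read 3.66, 4.61 and 4.57 in C57BL/6 and 5.58, 6.16 and 5.38 in db/db, a difference of 1.43 ± 0.39 (SE, n = 3 per group). In this circRNA the low array among the controls was C57BL/6 replicate 1 and not replicate 2, and the db/db arrays were tighter.

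Of the 16 members with a difference of at least 1, the 12th and the 13th had db/db arrays that differed least. The 12th read 2.46, 2.30 and 2.95 in C57BL/6 and 3.57, 3.76 and 3.67 in db/db, with an SD of 0.34 among C57BL/6 and 0.093 among db/db arrays. The 13th read 4.15, 3.78 and 4.50 in C57BL/6 and 5.09, 5.38 and 5.23 in db/db. In both, the db/db arrays clustered while the C57BL/6 arrays were spread. The opposite held for the 15th, which read 1.94, 1.83 and 1.79 in C57BL/6 and 2.48, 4.07 and 2.22 in db/db, so that its mean rested mainly on db/db replicate 2. The brightest of the 16 was the ninth, at 5.23, 5.59 and 5.43 in C57BL/6 and 6.36, 7.31 and 5.95 in db/db.

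**Figure D1:**
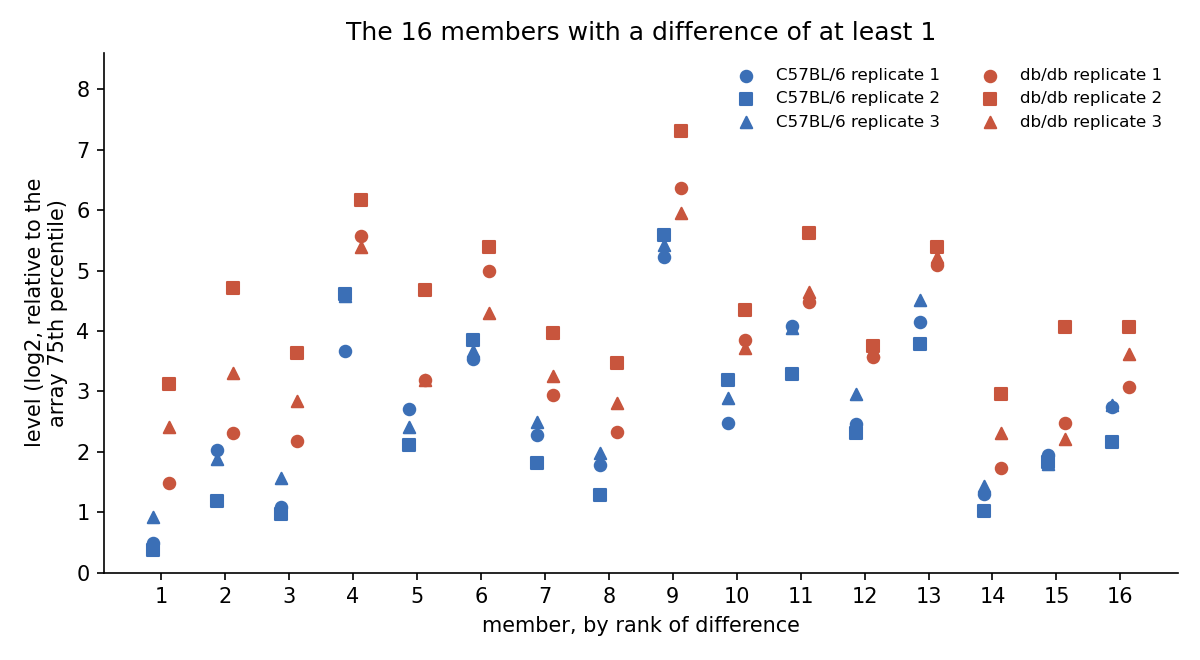
Level (log2 processed intensity relative to the array's 75th percentile) of the 16 members with a difference of at least 1, ordered by difference, with 1 point per array. Every red db/db point lies above every blue C57BL/6 point, as the choice of members required, and db/db replicate 2 (squares) is the highest array of each.

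Below these, 15 members differed by 0.7 to 1, 25 by 0.5 to 0.7, and 43 (43.4%) by under 0.5. The median difference was 0.53, and the quartiles were 0.45 and 0.76. Membership faded without a break at the minimum difference. The last members inside it differed by 0.4012 and 0.4004, and the first circRNAs outside by 0.3968 and 0.3967. Of the 261 eligible circRNAs whose groups did not overlap, 162 fell short of it.

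The gap between the lowest db/db and the highest C57BL/6 array was narrow for many members. It ran from 0.0017 to 0.77, with a median of 0.20. Each circRNA has 1 spot per array. The scanner software gives that spot an error of 10% of its intensity, which is 0.14 on the log2 scale. The figure was 10% to 10.002% for every member on every array, so it is not a measured spread of spots. The gap was under 0.14 for 37 members and at least 0.4 for 13. The 0.14 is the software's figure for a single spot, and the error of a difference between spots on different arrays is larger. Spots of probes printed 10 times had a median SD of 0.039 within an array. The group difference of the members was 1.13 to 6.06 times the pooled within-group SD, with a median of 2.48 times.

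A single array led most of the set. The array of db/db replicate 2 was the highest for 90 of the 99 members, that of db/db replicate 3 for 5 and that of db/db replicate 1 for 4. The choice fixed that a db/db array was the highest. Of the 1832 eligible circRNAs, 1168 had a db/db array highest, and in 653 (55.9%) of these it was db/db replicate 2. No test was made of that difference in share, since the members were chosen on the same values. Measured from the C57BL/6 mean, the median member stood at 0.40 in db/db replicate 1, 0.75 in replicate 2 and 0.44 in replicate 3. The median eligible circRNA stood at 0.07, 0.13 and 0.10. Without db/db replicate 2 the median difference of the members was 0.43 and 55 of the 99 still differed by at least 0.4.

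The lowest array was less uniform, and 2 of the C57BL/6 arrays took this place in most members. C57BL/6 replicate 2 was lowest for 57 members and C57BL/6 replicate 1 for 34, with C57BL/6 replicate 3 lowest for 8. Of the 1832 eligible circRNAs, C57BL/6 replicate 2 was lowest for 870, replicate 1 for 228 and replicate 3 for 80, and a db/db array for the rest. Replicate 2 was thus the most frequent lowest array in both sets, and the choice fixed that a C57BL/6 array was lowest in the members. Among members with replicate 1 lowest, the median difference was 0.62, and the median deviations from the C57BL/6 mean were -0.26, 0.09 and 0.16 in C57BL/6 and 0.65, 0.78 and 0.54 in db/db. Where replicate 2 was lowest, the median difference was 0.49, with deviations of 0.02, -0.17 and 0.16 in C57BL/6 and 0.36, 0.74 and 0.42 in db/db. The low deviation of the lowest array follows from this grouping. The median deviations of the 3 db/db arrays lay closer together where replicate 1 was lowest than where replicate 2 was, a contrast that was not tested. Of the 25 members of largest difference, 12 had replicate 1 lowest and 12 replicate 2.

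C57BL/6 replicate 3, the control array of the db/db scan, was the highest control for 70 members. From low to high, the C57BL/6 order was 2, 1, 3 in 46.5% of the members and 1, 2, 3 in 24.2%. In the eligible circRNAs these orders took 26.9% and 13.4%. There the most frequent order was 2, 3, 1, in 43.2%, beside 11.1% of the members. These shares were not tested, since the members were chosen on the same values. The median distance of C57BL/6 replicate 3 above the mean of C57BL/6 replicates 1 and 2 was 0.22 in the members and 0.10 in the eligible circRNAs. Within scan 2, where it is the only C57BL/6 array, the median difference of the members was 0.43, and it ran from 0.07 to 1.56. The members' separation from this array was fixed by their choice, so the scan's part in the differences was not tested.

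**Figure D2:**
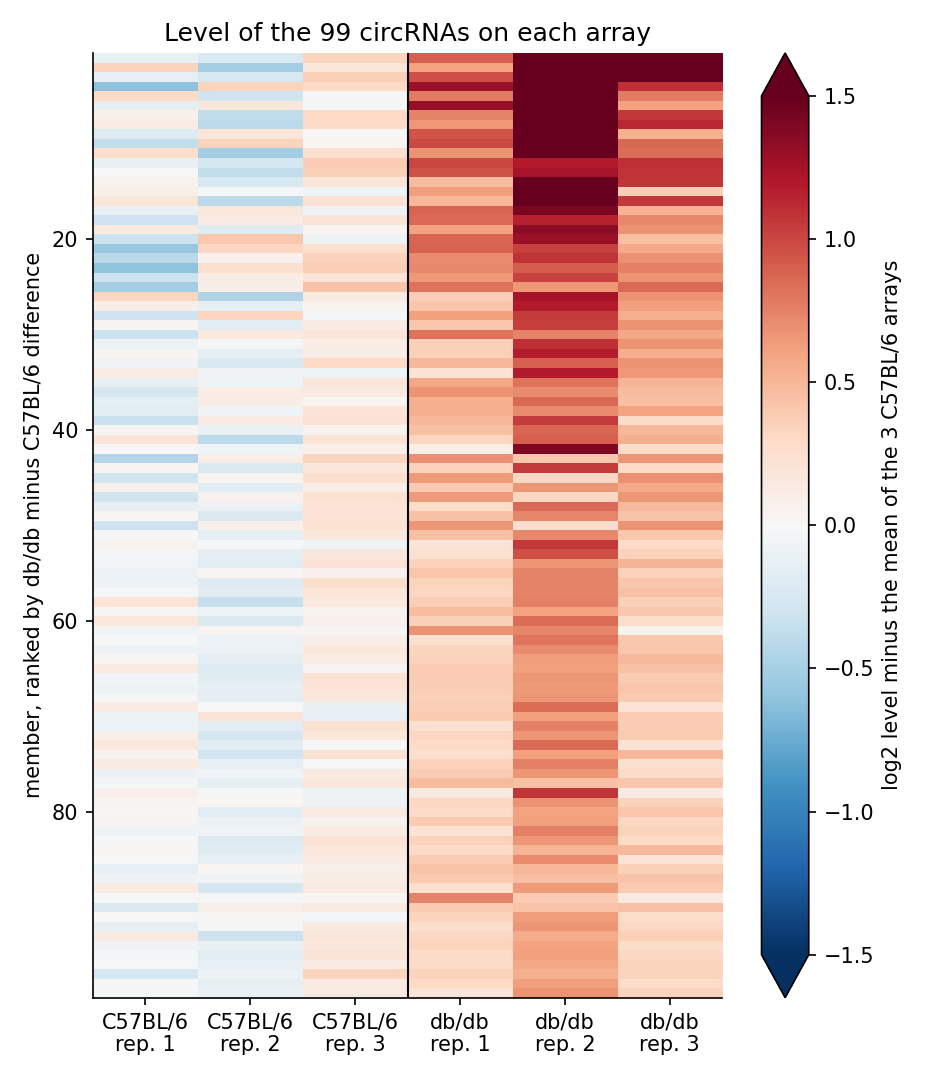
Level of each of the 99 members on each array minus its mean over the 3 C57BL/6 arrays (log2, colour scale from -1.5 to 1.5), ranked by difference from top to bottom. The column of db/db replicate 2 is the darkest, with a median of 0.75, and among the control columns C57BL/6 replicate 3 is the reddest, with a median of 0.15.

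The array's own controls did not move together. Of the 15 negative controls 11 read higher in db/db by mean, 3 of them with no overlap of the groups, and 4 read lower, 1 of them with no overlap. Of 14 probes named as circRNA controls, 1 read higher and 13 lower, from -1.29 to 0.04 with a median of -0.27. Within scan 2 alone, where C57BL/6 replicate 3 is the only control array, their differences ran from -0.44 to 0.18. The circRNA control of largest fall read -1.67, -1.49 and -3.14 in C57BL/6 and -2.47, -3.30 and -4.40 in db/db. Its C57BL/6 replicate 3 thus lay among the db/db arrays, and the scan's part in these falls was not tested. MM9NEGATIVE016, the brightest negative control on every array and hence the floor of the choice, read 0.46, 0.07 and 0.47 in C57BL/6 and 0.53, 1.04 and 0.76 in db/db. Its groups did not overlap, with db/db higher, and the difference of 0.44 was larger than that of 21 members. This difference was 0.38 to 0.49 with normexp, quantile normalization and median centring, but -0.07 with no scaling, where 12 of the 15 negative controls and all 14 circRNA controls read lower. Because this floor was higher in db/db, a circRNA near it was eligible only if it reached the higher floor on the db/db arrays too. When the eligible circRNAs were split by C57BL/6 level into 4 classes of 458, 75.8% of the faintest class read higher in db/db by mean, with a median difference of 0.14, beside 54.6% to 60.5% and medians of 0.03 to 0.07 in the other classes. The faintest class held 35 of the 99 members (7.64% of its circRNAs). The brightest class held 19 (4.15%), at mean C57BL/6 levels of 3.27 to 5.46. The part of the control signal in the members' differences was not tested.

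Another view of bright probes came from those printed as 10 spots each. Apart from MM9NEGATIVE016, 21 repeated probes were at least as bright as that control on every array, and 8 of the 21 read higher in db/db by mean. Their median difference was -0.05. Only Pex11a, which encodes a factor of peroxisome division, met the same separation and minimum difference, with levels of 4.31, 4.05 and 4.36 in C57BL/6 and 4.53, 4.95 and 4.62 in db/db, a difference of 0.46 that was 0.38 to 0.50 under the 4 other scalings and -0.05 with no scaling. For this mRNA probe, too, db/db replicate 2 was the highest array and C57BL/6 replicate 2 the lowest. RNase R, which degrades most linear RNA, was applied before labelling, so the probe need not report the amount of Pex11a mRNA in the heart. The spots of a repeated probe had a median SD of 0.039 within an array. Between animals the median SD of the members was 0.18 in C57BL/6 and 0.22 in db/db, beside 0.20 and 0.21 for the eligible circRNAs.

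**Figure D3:**
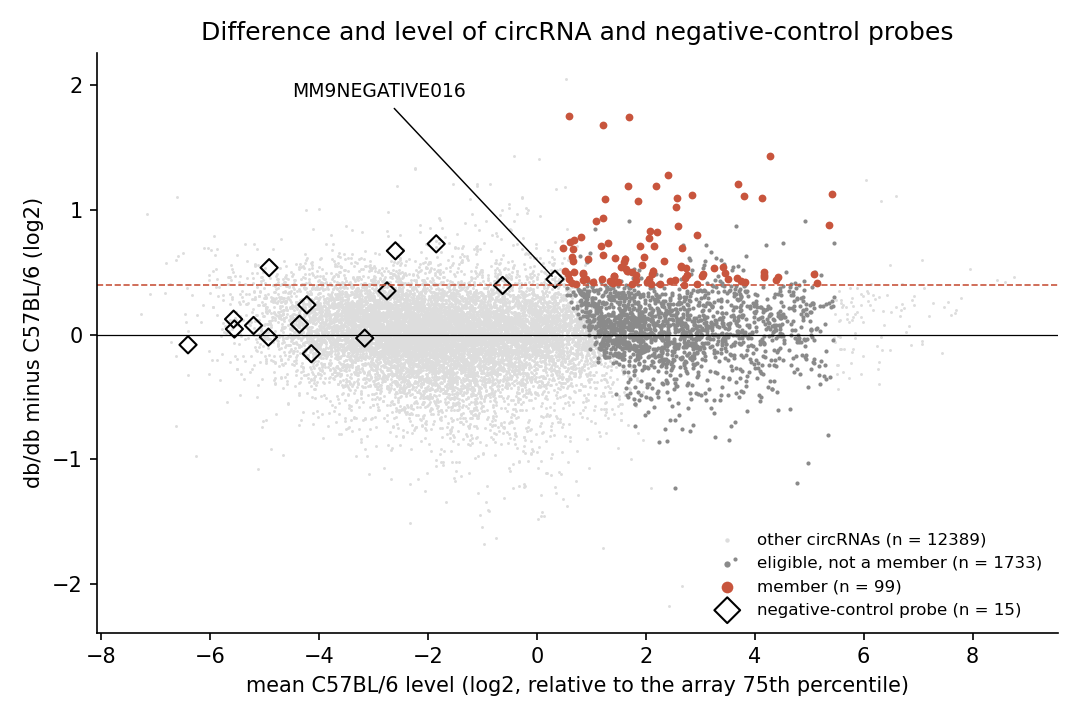
Difference between db/db and C57BL/6 (log2) against the mean C57BL/6 level for 14221 circRNA probes with a value on every array and for the 15 negative-control probes. The 99 members (red) lie above the dashed line at 0.4, and MM9NEGATIVE016 (difference 0.44) sits at the left end of their range, where the eligible circRNAs begin.

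The members were set against all circRNAs in a limma fit. At a limma adjusted p under 0.05, 0 of 14218 tested circRNAs were called, and the smallest limma adjusted p was 0.22, which members shared. At an unadjusted p under 0.05, 632 (4.45%) were higher and 863 (6.07%) lower in db/db, and this balance turned with the scaling, to 729 higher and 422 lower with normexp and 1066 higher and 744 lower with median centring. At the 75th percentile 95 of the 99 members were among the higher ones. That count follows from the choice, which used the same contrast. Groups did not overlap, with db/db higher, for 9.73% of the circRNAs with values and for 14.2% of the eligible ones. With db/db lower they did not overlap for 2.07% of the eligible circRNAs. The whole rule took 5.4% of the eligible circRNAs. Its mirror image took 19 (1.04%), none of them in the faintest class, where the floor described above stood higher in db/db. The excess of higher over mirrored circRNAs was not stable. Above the median negative control, of 13113 eligible circRNAs, 439 were higher and 537 lower. With no scaling the counts were 6 and 107 of 1832, and without C57BL/6 replicate 2 they were 102 and 79 of 1833. Above all but the brightest negative control they were 149 and 53 of 3360.

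To read the difference on arrays that had no part in choosing circRNAs, the rule was applied to 2 arrays per group and the remaining db/db and C57BL/6 array were compared. The 9 such pairs share arrays and are given as a description. The choice took 73 to 296 circRNAs. Of these 46 to 99 were members, for instance 46 of the 73 and 89 of the 296. The pairs thus describe the rule and not the 99 members as a set. On the pair left out, the median difference of the chosen circRNAs was above 0 in all 9 pairs, from 0.06 to 0.73 with a median of 0.31. The median of all eligible circRNAs ran from -0.06 to 0.28, and the chosen circRNAs exceeded it in all 9 pairs, by 0.03 to 0.79 with a median of 0.11. On the arrays left out the chosen circRNAs were thus higher in db/db by their median, but in 6 of the 9 pairs by less than the minimum of 0.4 that had chosen them. In 6 pairs the C57BL/6 array came from scan 1 and the db/db array from scan 2, so group and scan cannot be told apart there.

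The gap depended on which db/db array was left out. With db/db replicate 2 unseen, the chosen circRNAs read 0.73, 0.73 and 0.38 higher than on C57BL/6 replicates 1, 2 and 3, where the eligible circRNAs read -0.06, 0.16 and -0.04. With db/db replicate 1 unseen the values were 0.06, 0.48 and 0.10, beside 0.00, 0.21 and 0.00 for the eligible. With db/db replicate 3 unseen they were 0.13, 0.31 and 0.15, beside 0.03, 0.28 and 0.04. In the 3 pairs with C57BL/6 replicate 3 both arrays came from scan 2, and the circRNAs had been chosen with controls of scan 1 alone. There 67.9%, 76.6% and 86.3% of the chosen circRNAs were above 0 for db/db replicates 1, 2 and 3, beside 49.5%, 48.2% and 60.6% of the eligible. In the 6 other pairs 53% to 93.5% of the chosen and 44.9% to 83.2% of the eligible were above 0, and in the pair of db/db replicate 3 and C57BL/6 replicate 2 the chosen share was the smaller, at 69.6% beside 83.2%.

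**Figure D4:**
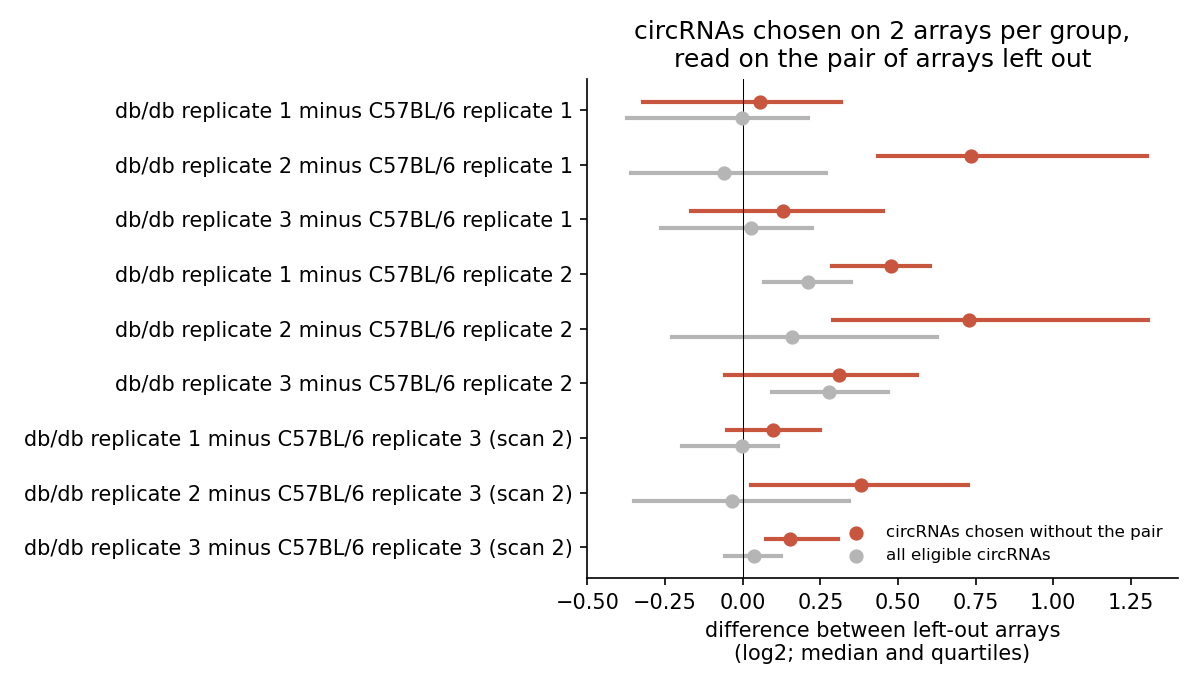
Difference between the db/db and the C57BL/6 array left out of the choice (log2), as median (point) and quartiles (line), for circRNAs chosen on the other 4 arrays (red) and for all eligible circRNAs (grey). The red median lies to the right of the grey one in all 9 pairs, most widely where db/db replicate 2 was left out.

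The size of the members' difference changed little between scalings, while the number that met the rule did not stay fixed. The median was 0.48 with quantile normalization, 0.48 with normexp, 0.58 with median centring and 0.50 in the authors' deposited table. All 99 members remained higher by mean under these, beside 54.5% to 71% of the eligible circRNAs. With normexp the median of all circRNAs was itself 0.11, so that the members stood 0.37 above it, against 0.52 at the 75th percentile. Above the median of the eligible circRNAs they stood 0.45 with normexp and 0.46 at the 75th percentile. Groups of the members stayed apart for 88 members with quantile normalization, 93 with normexp, 96 with median centring and 92 in the authors' deposited table. The members were chosen on the same arrays, so these counts follow in large part from the choice. The share of eligible circRNAs apart with db/db higher was counted at the 75th percentile only, where it was 14.2%. For 84 members the groups stayed apart under all 6 scalings, and 61 of these also kept a difference of at least 0.4 under each. Of those 61, 23 were among the 25 of largest difference. Members whose groups overlapped under at least 1 scaling ranked from 20 to 97 by difference, so they were not confined to small differences. Members that stayed apart but fell under 0.4 ranked from 56 to 99. That follows from the cut, since they differed by at most 0.50 at the 75th percentile.

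The deposited intensities before any scaling gave another picture. The median of all circRNAs was then -0.50 and that of the members 0.02. By mean, 52 of the 99 members were higher, beside 4.64% of the eligible circRNAs. Groups stayed apart for 8 members, all among the 25 of largest difference. The processed intensity of ASCRP4007607 was 1005, 719 and 756 in C57BL/6 and 1386, 2590 and 1994 in db/db, apart without scaling. That of ASCRP4009573 was 2922, 1271 and 1466 in C57BL/6 and 2439, 7728 and 3720 in db/db, where db/db replicate 1 fell below C57BL/6 replicate 1.

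**Figure D5:**
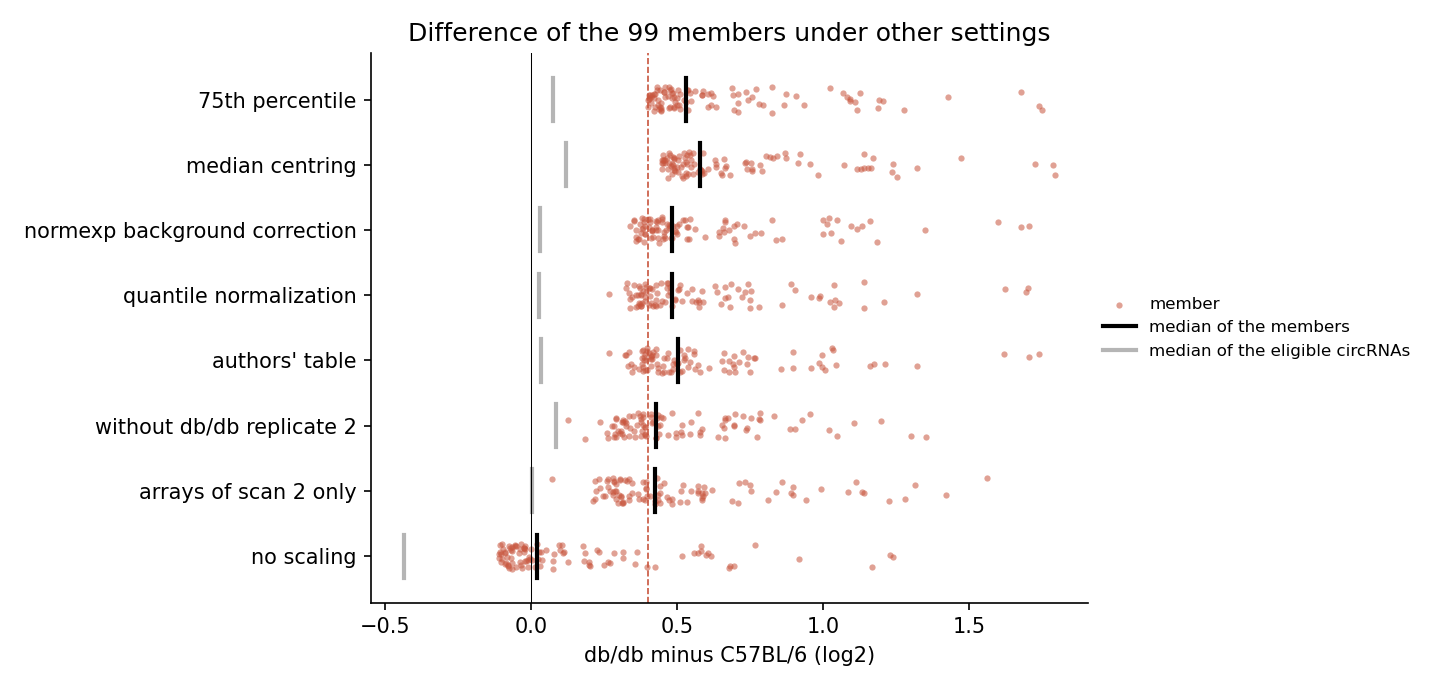
Difference between db/db and C57BL/6 (log2) of each of the 99 members under 8 settings, with the median of the members (black) and of the eligible circRNAs (grey), and the minimum difference of 0.4 (dashed). The black line lies between 0.43 and 0.58 except with no scaling, where it is 0.02 and the grey line -0.44.

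The spots of the members were spread over the array. In 4 equal blocks of its rows they numbered 18, 28, 28 and 25, where the eligible circRNAs numbered 459, 472, 436 and 465. In 4 equal blocks of its columns they numbered 30, 34, 17 and 18, where the eligible circRNAs numbered 461, 465, 452 and 454. The members were thus more frequent on the side of low column numbers, and its part in the result was not tested.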

How the data were processed

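Cy3-labelled RNA of 6 hearts was read on 6 one-colour Agilent arrays with Agilent Feature Extraction 11.0.1.1, per the file headers, which also name the mouse build mm9. The deposited intensity is Agilent's processed signal, from which the software had removed background and spatial trends array by array, with no step between arrays. Other deposited columns used are control types, spot positions, 0 or 1 flags and the software's error. The authors' deposited table holds log2 values, as judged against the intensities, with steps not given in the sources used here. It has no control probes, so eligibility was taken from the scanner values.

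Outlier-flagged spots were dropped, log2 processed intensities averaged per probe, and the 75th percentile of the non-control probes subtracted. Probes well above background on at least 3 arrays with a value on all 6 were tested with limma 3.58.1 in R 4.3.3 (group as the only term, two-sided, Benjamini-Hochberg), after a test on simulated data. Arrays sharing a scan identifier in the file headers were treated as 1 scan. The members, the lists and the tests were chosen with earlier results of these data known. The rule for named circRNAs took the 2 members of largest difference. Members described by rank for their spread between arrays were chosen after their values were seen, as was the comparison without scaling. Alternatives were normexp (offset 50, on the median intensity), quantile normalization, median centring, another percentile set, the authors' table, no filter on dim probes, array weights, scan and replicate blocks, other limits of the rule, and leaving out each array. Precision is limited by the 3 arrays per group.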

Additional observations from a re-analysis of the deposited data

How the results depend on the processing

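By limma, 0 circRNAs passed an adjusted p under 0.05 in every fit run, with a smallest limma adjusted p of 0.0618 to 1, beside 632 higher at an unadjusted p under 0.05. That 632, beside 863 lower, became 1066 under median centring (744 lower), 74 with scan as a block (110 lower), 70 in scan 2 alone (158 lower), and 337 to 845 with 1 array left out (337 without C57BL/6 replicate 1, 339 without db/db replicate 2). The 99 of 1832 eligible circRNAs that met the rule became 172 and 56 at a minimum difference of 0.3 and 0.5. Above the median negative control they were 439 of 13113 (537 by the mirrored rule). Above all but the brightest one they were 149 of 3360 (53). The eligible set differs in size between these limits, so the counts do not compare directly. With no scaling 6 of 1832 met the rule (107), 8 members kept their groups apart and the members' median difference was 0.022. With 1 array left out, 62 to 187 circRNAs met the rule, where fewer arrays make separation easier. They were 165 of 1851 without C57BL/6 replicate 1 and 187 of 1834 without C57BL/6 replicate 3. They were 178 of 1843 without db/db replicate 1, 165 of 1846 without db/db replicate 3 and 62 of 2229 without db/db replicate 2. Of those 62, 55 were members. On pairs of arrays left out, the chosen circRNAs exceeded the eligible ones in 8 of 9 pairs with quantile normalization and in 9 of 9 under the 3 other scalings run, although 1 of their medians was -0.02 under median centring. Counts of 69 to 134 under the other scalings, of 1832 to 1838 eligible circRNAs, included 65 to 99 members. For circRNAs lower by the mirrored rule, quantile normalization and the authors' table gave 54 each, beside 19, and leaving out 1 array gave 15 to 79 (79 without C57BL/6 replicate 2, where 102 were higher).

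Replicate numbers were not taken to pair the arrays. Deviations of same-numbered arrays from their group means correlated at -0.26, -0.14 and 0.42 across circRNAs. The 0.42 belonged to replicate 3, whose arrays both came from scan 2. These values cannot exclude a pairing, since the deviations of the 3 arrays of a group depend on one another. With a replicate block, limma called 0 circRNAs at an adjusted p under 0.05 and 639 were higher at an unadjusted p under 0.05. Depth in the form of signal over the negative controls limits the 35 members in the faintest class of the eligible circRNAs most.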
